A study of Rattus norvegicus with 9 samples.

Results

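Genes of fatty acid oxidation and ketone body metabolism were followed in rat liver by the signals of all probe sets whose platform gene symbol was one of 35 listed genes. These came to 34 genes with a probe set, which together had 41 of the 15866 non-control probe sets on the array. Acaa1a had no probe set carrying its symbol alone and is not analysed here. Total RNA of whole liver was hybridised to 9 arrays in 1 colour, with 3 arrays a group. The 3 groups are Burn-CLP, with a burn and CLP, Sham-CLP, with a sham procedure and CLP, and Sham-Sham, the control with sham procedures in place of both. CLP is not spelled out in the labels. Cecal ligation and puncture, a surgical model of abdominal sepsis, is its usual reading in rodent studies. Strain, sex, age and the time of sampling are not given in the sources used here, nor is it stated that each array holds a different animal. The comparisons ask how the fatty acid oxidation genes stood after burn with CLP, after CLP alone, and between those conditions.

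Fatty acids enter liver cells with the help of transport and binding proteins and are activated to acyl-CoA. The carnitine shuttle carries long-chain acyl groups into mitochondria, where β-oxidation shortens them by repeated dehydrogenation, hydration, dehydrogenation and thiolysis, with electrons passed on by electron transfer flavoprotein. Peroxisomes shorten very long-chain and branched acyl groups and hand the products to mitochondria. Acetyl-CoA that the liver does not burn can leave as the ketone bodies acetoacetate and 3-hydroxybutyrate, a fuel for other tissues during fasting. The nuclear receptor PPARα, with its coactivator PGC-1α (Ppargc1a), is a well-known activator of these genes in liver.

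In Burn-CLP livers most of these genes had lower signals than in Sham-Sham livers, but no single one passed the test. Signals were quantile normalized here, raised to a floor of 64.31 and compared on the log2 scale with limma, and an adjusted p under 0.05 over 13535 tested probe sets was called. Of the members 38 probe sets of 32 genes were tested. The 3 untested probe sets, of Acot1, Ppargc1a and a second Eci1 probe set, were above the floor on too few arrays. In Burn-CLP against Sham-Sham, 0 of 38 member probe sets were called, beside 0.746% of all probe sets, and the smallest adjusted p of a member was 0.0681. At an unadjusted p under 0.05, 22 of 38 (57.9%) were lower and 0 were higher in Burn-CLP, beside 9.85% lower and 10% higher among all probe sets. That count of 22 was 14 with median scaling, beside 7.83% of all probe sets. The 3 Burn-CLP arrays all lay below the 3 Sham-Sham arrays for 23 of 38, beside 10.5% of all probe sets. The median log2 difference of the 38 was -0.58, or 67% of the Sham-Sham level, and that of all probe sets was 0.01.

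In Sham-CLP livers 31 of 38 members had lower mean log2 signals than in Sham-Sham livers, with a median difference closer to 0 than in Burn-CLP. The median difference of all probe sets was 0.00. That count of 31 was 28 with the deposited scaling and 20 with median scaling, beside medians of all probe sets of -0.08 and 0.11. In Sham-CLP against Sham-Sham, 0 of 38 were called, beside 0.0591% of all probe sets, with a smallest adjusted p of 0.293. At an unadjusted p under 0.05, 9 (23.7%) were lower and 1, Acsl5, was higher, beside 5.9% lower and 5.83% higher among all probe sets. The count of 9 was 5 with the deposited scaling, beside 10.1% of all probe sets, and 2 with median scaling, beside 4.75%. It was 4 if Sham-CLP 1 or Sham-Sham 2 was left out, beside 3.63% and 4.92% of all. It was 5 if Sham-CLP 2 was left out and 6 if Sham-Sham 3 was, beside 3.8% and 10% of all. It was 10 if Sham-Sham 1 was left out and 12 if Burn-CLP 2 was, beside 4.05% and 5.72%. It was also 12 with only these groups fitted and with an eBayes trend and robust fit, beside 4.95% and 5.67%. Without both Burn-CLP 2 and Sham-Sham 1, a choice made after seeing the data, it was 16, beside 4.29%. Every Sham-CLP array lay below every Sham-Sham array for 17 of 38, beside 8.65% of all. The median log2 difference was -0.38, or 76.7% of the Sham-Sham level. It depended on the scaling of the arrays. It was -0.23 with the deposited scaling and -0.02 with median scaling, while the median of all probe sets was 0.00 with quantile normalization, -0.08 with the deposited scaling and 0.11 with median scaling. Measured from those medians, the members stood at -0.39, -0.15 and -0.13 in Sham-CLP, and at -0.59, -0.55 and -0.54 in Burn-CLP. Both comparisons use the same 3 Sham-Sham arrays.

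In Burn-CLP livers 32 of 38 members had lower mean log2 signals than in Sham-CLP livers. In this comparison 0 of 38 were called, beside 0.0148% of all probe sets, with a smallest adjusted p of 0.378. At an unadjusted p under 0.05, 6 (15.8%) were lower and 2 were higher in Burn-CLP, beside 5.19% lower and 3.9% higher among all. Every Burn-CLP array lay below every Sham-CLP array for 6 of 38, beside 9.22% of all. The 6 at that p were both Bdh1 probe sets, Acsl5, 1 Acsl1 probe set, 1 Crot probe set and Ehhadh, and the 2 were both probe sets of Cpt1a. That count of 2 was 0 with the deposited scaling, median scaling, no filter and the replicate block, and also 0 if Burn-CLP 1, Burn-CLP 2 or any 1 of the Sham-CLP arrays was left out. The median log2 difference was -0.22, beside 0.02 for all probe sets. It was -0.07 without the second Burn-CLP array, -0.34 without the first and -0.44 with median scaling. The medians of all probe sets there were 0.02, 0.01 and -0.03. The count of 6 was 1 if Burn-CLP 2 or Sham-CLP 3 was left out, beside 3.17% and 3.7% of all probe sets. It was 3 if Sham-CLP 2 was left out and 9 if Burn-CLP 3 was, beside 3.73% and 6.69% of all. It was 12 with the deposited scaling and 17 with median scaling, beside 4.36% and 8.12% of all. With both CLP groups pooled against Sham-Sham, 0 of 38 were called, beside 0.355% of all, and 20 (52.6%) were lower and 0 higher at an unadjusted p under 0.05, beside 9.09% lower and 9.31% higher among all. That count of 20 was 13 with the deposited scaling, 7 with median scaling and 10 without Sham-Sham 2, beside 10.8%, 6.71% and 7.59% of all. All 6 CLP arrays lay below all Sham-Sham arrays for 16 of 38, beside 4.01% of all. A moderated F test over the 3 groups called 0 members, with a smallest adjusted p of 0.155, and 20 of 38 (52.6%) had an unadjusted p under 0.05, beside 16% of all probe sets. Mean signals ran Burn-CLP below Sham-CLP below Sham-Sham for 26 of 38 members (68.4%), beside 21.1% of all probe sets. This order was counted in the main fit only. With median scaling 20 members, rather than 31, had lower means in Sham-CLP than in Sham-Sham. Without Burn-CLP 2, 24 rather than 32 had lower means in Burn-CLP than in Sham-CLP.

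**Figure D1:**
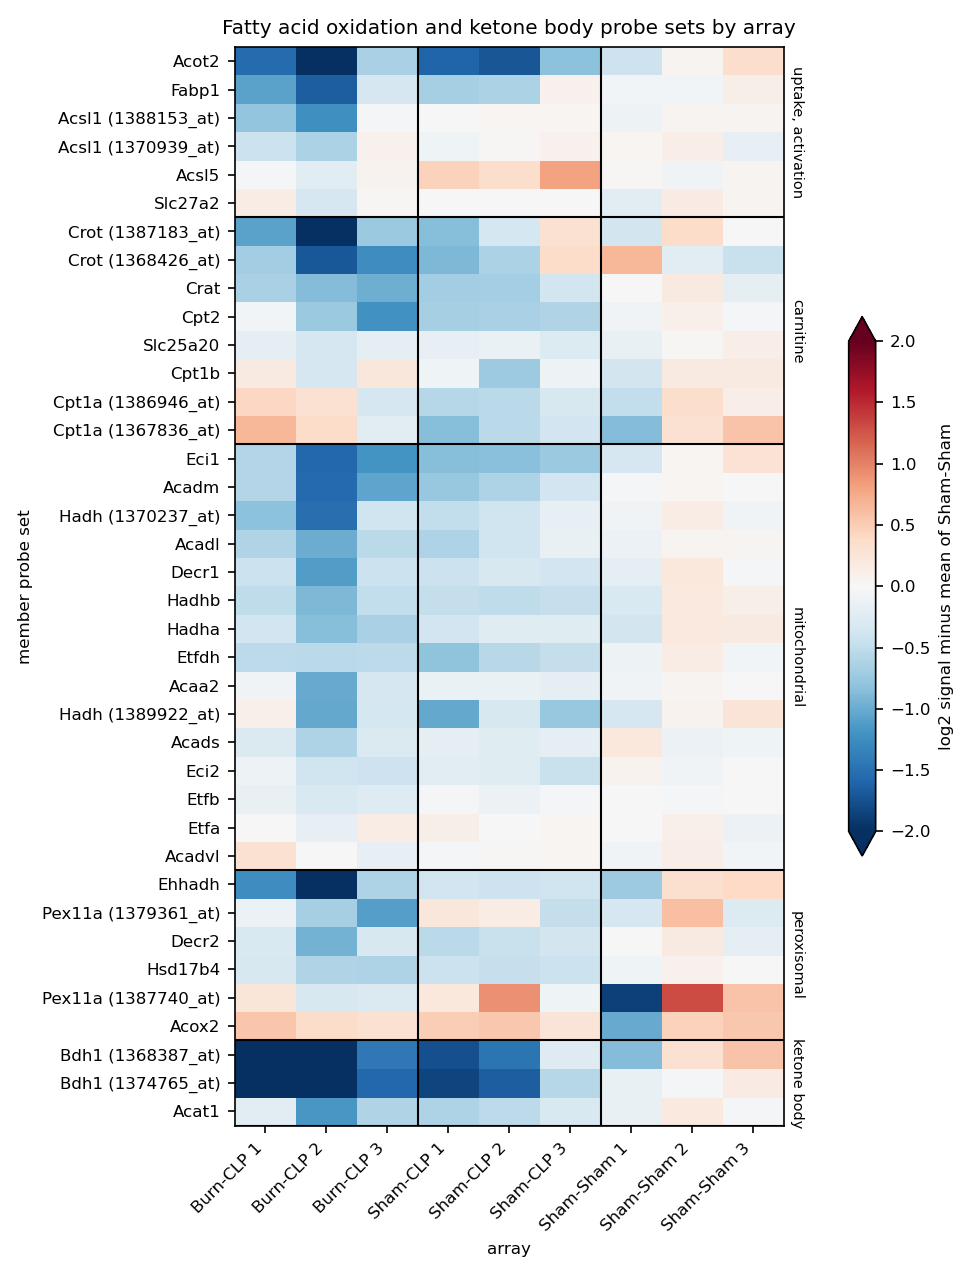
Heat map of the 38 tested member probe sets (rows, grouped by step) on the 9 arrays (columns, Burn-CLP, Sham-CLP and Sham-Sham from left to right). Colour is the log2 signal minus the Sham-Sham mean, on a scale cut at both ends, so that larger differences share the darkest colour. Both Bdh1 rows reach the darkest colour on the first 2 Burn-CLP arrays, as Ehhadh, Acot2 and a Crot probe set do on the second. Acadvl and Etfa stay near 0 on all arrays.

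The arrays of a group were not alike. Set against the Sham-Sham mean, the median member stood at 80.7%, 55% and 75.6% on the Burn-CLP arrays, at 73%, 76.1% and 83.3% on the Sham-CLP arrays, and at 91.4%, 110% and 102% on the Sham-Sham arrays. The second Burn-CLP array was the lowest of its group for 29 of 38 members (76.3%), beside 35.8% of all probe sets. Sham-Sham 1 was the lowest of its group for 29 of 38 as well, beside 38.4% of all probe sets, and its mean correlation with the other arrays was 0.907, beside 0.937 to 0.958 for the other 8. Without both arrays the median in Burn-CLP against Sham-Sham was -0.52. There 16 members were lower at an unadjusted p under 0.05, beside 6.32% of all probe sets.

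Markers of other liver cells were measured beside the members. The hepatocyte markers, 7 of 7 genes measured, summed to signals of 190128 to 200667 in Burn-CLP, 183468 to 200100 in Sham-CLP and 172857 to 186883 in Sham-Sham. The macrophage markers, 4 of 6 genes measured, summed to 6800 to 9652 in Burn-CLP, 5224 to 7184 in Sham-CLP and 5967 to 6082 in Sham-Sham. The neutrophil markers, 5 of 6 genes measured, summed to 854.6 to 1808 in Burn-CLP, 618.6 to 1000 in Sham-CLP and 596.4 to 803.2 in Sham-Sham. The second Burn-CLP array had the highest macrophage and neutrophil sums of all 9 arrays. Red cell markers, 2 of 3 genes measured, summed to 8988 to 10500 in Burn-CLP, 10007 to 11467 in Sham-CLP and 11412 to 14126 in Sham-Sham, so Burn-CLP lay wholly below Sham-Sham. Stellate cell and fibroblast markers, 6 of 6 genes measured, summed to 4211 to 5942 in Burn-CLP, 4063 to 6018 in Sham-CLP and 5932 to 6547 in Sham-Sham. Sums of lymphocyte, endothelial and bile duct markers overlapped between the groups, apart from lymphocytes in Burn-CLP against Sham-CLP. Sham-Sham 1 had the highest sum of muscle and fat markers of all 9 arrays, 786.9 against 562.3 and 452.6 on the other Sham-Sham arrays, and its bile duct sum was 1029 against 799.7 and 791.1.

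Of these markers 1 neutrophil gene and 1 stellate cell and fibroblast gene passed the test in Burn-CLP against Sham-Sham. S100a9, a calcium-binding protein of neutrophils, rose with a log2 change of 2.80 and an adjusted p of 0.0239, and 2 of its Sham-Sham arrays were at the floor. Of the 5 neutrophil probe sets 3 had higher and 2 lower means, with a median of 0.56. Dcn, the matrix proteoglycan decorin, rose with 1.48 and an adjusted p of 0.0239. Of the 8 stellate cell and fibroblast probe sets 2 had higher and 6 lower means, with a median of -0.34. Neither gene passed without Burn-CLP 2, without Sham-Sham 2 or with only these groups fitted, and S100a9 also failed without Sham-Sham 1 and with no filter. The part of all these cells in the members' values was not tested. In whole liver, fewer cells of a type and less RNA per cell cannot be told apart.

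Promoters of the members were searched for the direct repeat that PPARα binds, because many of these genes are known as its targets. RefSeq gives 31 of the 35 genes a window of 250 bases before to 50 bases after the start site in GRCr8. The motif, 2 copies of the half-site AGGTCA with 1 base of any kind (N) between them, read on both strands with at most 2 mismatches in its 12 fixed letters, was found in 6 of the 31 (19.4%), beside 3.77% of 33469 rat promoters. With at most 1 mismatch it was found in 2, Fabp1 and Acadvl, or 6.45%, beside 0.439% of all promoters. The other 4 were Crat, Slc25a20, Etfa and Slc27a2. The windows of Fabp1 (chr4:104749090-104749389, plus strand), Crat (chr3:34087050-34087349, minus strand) and Acadvl (chr10:55236656-55236955, minus strand) are shown because they hold the motif and their genes had unlike values. The match is in capitals and starts 77 bases before the start site in Fabp1, 223 before it in Crat and 17 before it in Acadvl.
Fabp1: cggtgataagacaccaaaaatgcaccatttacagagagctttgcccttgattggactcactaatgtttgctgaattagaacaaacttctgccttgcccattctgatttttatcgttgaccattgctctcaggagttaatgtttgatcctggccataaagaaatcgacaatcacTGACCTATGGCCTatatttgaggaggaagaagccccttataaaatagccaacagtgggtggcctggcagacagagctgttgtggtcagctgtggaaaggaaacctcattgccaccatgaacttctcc
Crat: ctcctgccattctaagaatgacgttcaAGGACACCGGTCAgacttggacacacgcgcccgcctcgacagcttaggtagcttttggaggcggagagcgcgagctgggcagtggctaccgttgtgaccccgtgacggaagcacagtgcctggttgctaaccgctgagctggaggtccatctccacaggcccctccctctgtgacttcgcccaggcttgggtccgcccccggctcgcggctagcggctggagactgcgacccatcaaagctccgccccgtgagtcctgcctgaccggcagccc
Acadvl: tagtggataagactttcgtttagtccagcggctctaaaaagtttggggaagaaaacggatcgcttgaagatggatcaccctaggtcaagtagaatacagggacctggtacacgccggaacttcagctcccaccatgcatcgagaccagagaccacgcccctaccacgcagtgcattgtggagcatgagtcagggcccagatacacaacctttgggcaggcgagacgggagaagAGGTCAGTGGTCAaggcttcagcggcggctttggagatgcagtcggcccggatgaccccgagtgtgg
Of the 6 genes with a match, the log2 differences in Burn-CLP against Sham-Sham were -1.02 for Fabp1, -0.83 for Crat, -0.24 for Slc25a20, -0.05 for Slc27a2, 0.00 for Etfa and 0.05 for Acadvl. A match is a description of these letters and no measure of binding.

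The acyl-CoA thioesterase genes Acot1 and Acot2 were counted here with the genes of uptake, binding and activation. In this group Acot2 and Fabp1 had the lowest Burn-CLP signals against Sham-Sham, while Slc27a2 and Acsl5 stood near it. Fabp1, the main fatty acid binding protein of liver cytosol, had signals of 12068, 8119 and 20116 in Burn-CLP, 15976, 16400 and 26930 in Sham-CLP, and 24394, 24394 and 27488 in Sham-Sham. All Burn-CLP arrays lay below all Sham-Sham arrays, whereas Sham-CLP overlapped Sham-Sham. The log2 difference was -1.02 ± 0.33 (SE, adjusted p = 0.15) in Burn-CLP and -0.40 ± 0.33 (adjusted p = 0.63) in Sham-CLP, each against Sham-Sham, and the second of these was 0.09 with median scaling. Acot2, a mitochondrial acyl-CoA thioesterase, had 106.4, 50.03 and 195.8 in Burn-CLP, 101.5, 94.6 and 173.9 in Sham-CLP, and 232.6, 319.2 and 394.9 in Sham-Sham. Both CLP groups lay wholly below Sham-Sham, by -1.48 ± 0.40 (adjusted p = 0.106) in Burn-CLP and -1.38 ± 0.40 (adjusted p = 0.306) in Sham-CLP. One Burn-CLP array was at the floor, so the first difference is understated, and Acot1, a close relative, was below the floor on all 9 arrays. Signals of such near-identical genes may be shared.

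Acsl5, an acyl-CoA synthetase, was the one member higher in Sham-CLP than in Sham-Sham at an unadjusted p under 0.05. It had 4066, 3590 and 4375 in Burn-CLP, 5745, 5342 and 7308 in Sham-CLP, and 4236, 3968 and 4344 in Sham-Sham. The Sham-CLP arrays lay above those of both other groups. The log2 difference was 0.54 ± 0.18 (adjusted p = 0.33) for Sham-CLP against Sham-Sham and -0.60 ± 0.18 (adjusted p = 0.378) for Burn-CLP against Sham-CLP. Acsl1, the main liver synthetase of the same family, had 2 probe sets. One read 6639, 4903 and 11155 in Burn-CLP, 11361, 11770 and 11770 in Sham-CLP, and 10711, 11853 and 11853 in Sham-Sham, so the first 2 Burn-CLP arrays stood below all others and the third did not. Its log2 difference in Burn-CLP against Sham-Sham was -0.68 ± 0.27 (adjusted p = 0.207), and that of the other probe set was -0.33 ± 0.21 (adjusted p = 0.40). Slc27a2, a very long-chain acyl-CoA synthetase and transporter, averaged 13145 ± 2158 in Burn-CLP, 13449 ± 40.5 in Sham-CLP and 13607 ± 1889 in Sham-Sham (SD, n = 3 each), with a log2 difference of -0.05 ± 0.18 (95% interval -0.47 to 0.36) in Burn-CLP.

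In the carnitine shuttle the acyltransferases for short and medium chains, Crat and Crot, stood lowest in Burn-CLP against Sham-Sham. In Sham-CLP against Sham-Sham the lowest were Cpt2 and 1 Cpt1a probe set, at -0.64 and -0.59. Crat, carnitine acetyltransferase, had 524.3, 446.7 and 417 in Burn-CLP, 507, 510.6 and 631.9 in Sham-CLP, and 817.1, 928.2 and 722.3 in Sham-Sham. No array of either CLP group reached the lowest Sham-Sham array. The log2 difference was -0.83 ± 0.18 (adjusted p = 0.0686) in Burn-CLP and -0.58 ± 0.18 (adjusted p = 0.328) in Sham-CLP. Crot, which forms medium-chain acylcarnitines in peroxisomes, had 2 probe sets. One read 952.3, 448.2 and 1202 in Burn-CLP, 1114, 1573 and 2476 in Sham-CLP, and 1559, 2581 and 1990 in Sham-Sham. The other read 2460, 1229 and 1682 in Burn-CLP, 2148, 2578 and 5169 in Sham-CLP, and 6360, 3434 and 2931 in Sham-Sham. On both, Burn-CLP lay wholly below Sham-Sham and Sham-CLP overlapped it. The log2 differences in Burn-CLP were -1.32 ± 0.40 (adjusted p = 0.138) and -1.22 ± 0.41 (adjusted p = 0.161), and in Sham-CLP they were -0.29 and -0.39. The Sham-CLP values were -0.03 and -0.06 with median scaling. With 1 array left out they ran from -0.59 (without Sham-CLP 3) to -0.019 (without Sham-CLP 1) and from -0.77 (without Sham-CLP 3) to -0.054 (without Sham-Sham 1).

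Cpt1a, the malonyl-CoA-sensitive entry enzyme of the shuttle and its rate-controlling step, had the highest Burn-CLP level relative to Sham-CLP of the tested members. Of its 2 probe sets one read 6613, 5391 and 3614 in Burn-CLP, 2314, 2854 and 3195 in Sham-CLP, and 2274, 5137 and 6179 in Sham-Sham. The other read 8242, 7614 and 4903 in Burn-CLP, 4146, 4261 and 4938 in Sham-CLP, and 4392, 7915 and 6784 in Sham-Sham. Sham-Sham 1 lay within or just below the Sham-CLP range on both, and the other 2 Sham-Sham arrays lay within the Burn-CLP range. Against Sham-CLP the Burn-CLP log2 differences were 0.87 ± 0.37 (adjusted p = 0.533) and 0.61 ± 0.27 (adjusted p = 0.548). Against Sham-Sham they were 0.28 ± 0.37 and 0.13 ± 0.27, and without Sham-Sham 1 they were -0.16 and -0.12. Cpt2, the inner membrane partner, had 2665, 1646 and 1190 in Burn-CLP, 1753, 1754 and 1822 in Sham-CLP, and 2638, 2967 and 2697 in Sham-Sham. Its log2 difference was -0.67 ± 0.26 (adjusted p = 0.207) in Burn-CLP, whose first array reached the Sham-Sham range, and -0.64 ± 0.26 (adjusted p = 0.402) in Sham-CLP, whose arrays did not. With median scaling the Sham-CLP difference of Cpt2 was -0.35. The muscle isoform Cpt1b stood at 0.02 ± 0.26 in Burn-CLP, and the carrier Slc25a20, which exchanges acylcarnitine for carnitine across the inner membrane, at -0.24 ± 0.16.

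**Figure D2:**
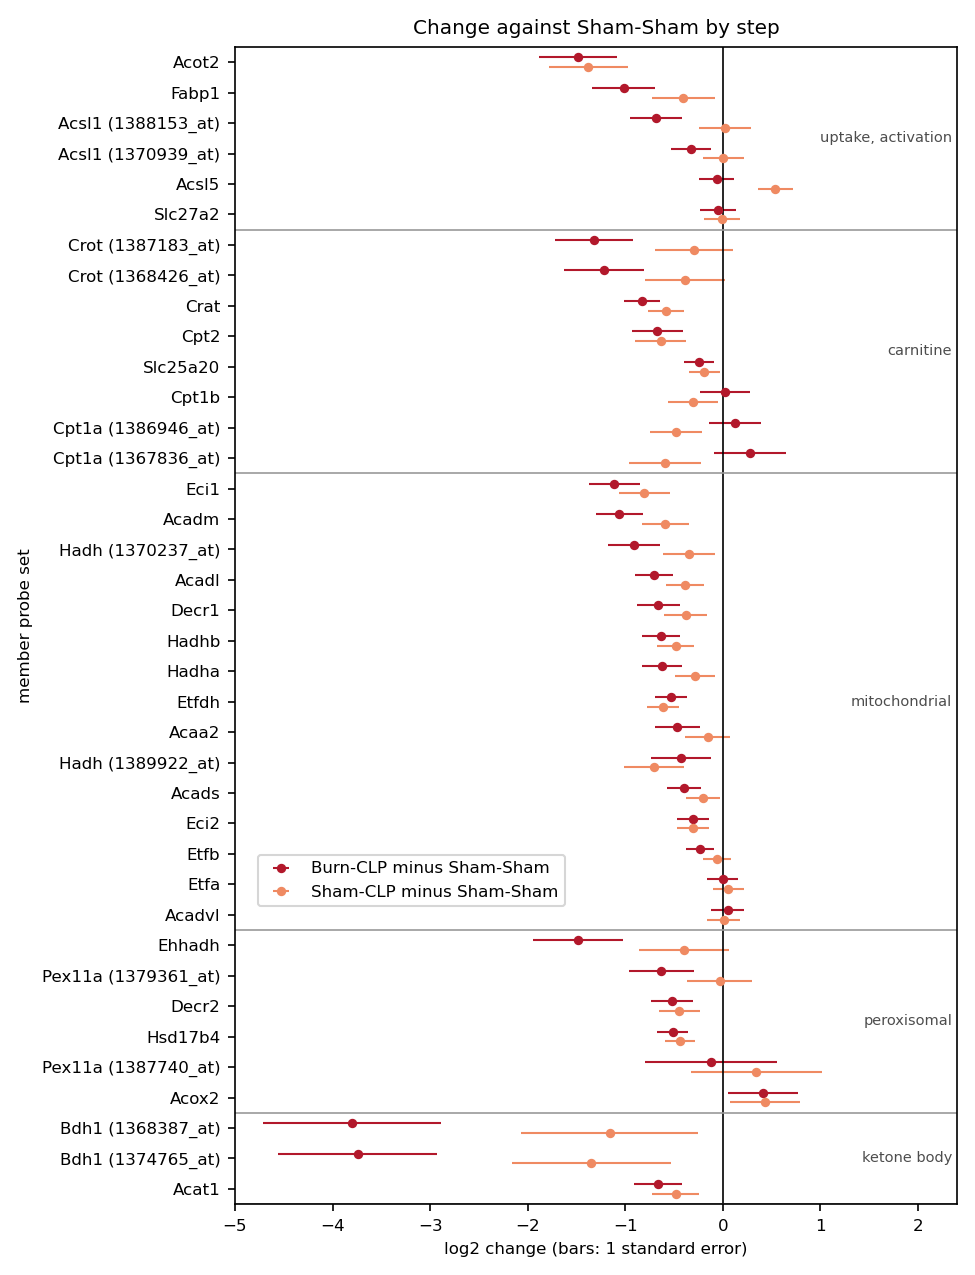
Log2 differences from Sham-Sham (x axis) of each tested member probe set (rows, grouped by step) in Burn-CLP and in Sham-CLP, with bars of 1 standard error from the limma fit of 9 arrays. Most points lie left of 0, the Bdh1 probe sets farthest at -3.80 and -3.74 in Burn-CLP, while Acadvl and Etfa lie at 0.05 and 0.00.

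Of the mitochondrial β-oxidation genes, 9 of 15 probe sets were lower in Burn-CLP than in Sham-Sham at an unadjusted p under 0.05 and 0 were higher, beside 9.85% lower and 10% higher among all probe sets. The acyl-CoA dehydrogenases, which start each cycle and are each named for a chain length, did not stand alike. Acadm, the medium-chain enzyme, had 7000, 3594 and 5085 in Burn-CLP, 6186, 6861 and 8047 in Sham-CLP, and 10244, 10852 and 10439 in Sham-Sham. Both CLP groups lay wholly below Sham-Sham, whose 3 arrays were close to each other. The log2 difference was -1.06 ± 0.24 (adjusted p = 0.0707) in Burn-CLP and -0.59 ± 0.24 (adjusted p = 0.40) in Sham-CLP. Acadl, the long-chain enzyme, had 4462, 3381 and 4664 in Burn-CLP, 4411, 5137 and 6081 in Sham-CLP, and 6220, 7021 and 7034 in Sham-Sham, with differences of -0.71 ± 0.19 (adjusted p = 0.108) and -0.39 ± 0.19 (adjusted p = 0.465). With median scaling the Sham-CLP values of Acadm and Acadl were -0.22 and 0.00. Acads, the short-chain enzyme, stood at -0.40 ± 0.17 (adjusted p = 0.241) in Burn-CLP.

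Acadvl, the very long-chain dehydrogenase of the inner membrane, had 3899, 3168 and 2808 in Burn-CLP, 3077, 3195 and 3243 in Sham-CLP, and 2999, 3450 and 3033 in Sham-Sham. The 3 groups overlapped, and the log2 difference was 0.05 ± 0.17 in Burn-CLP, with a 95% interval of -0.34 to 0.43. The interval of Acadm, -1.60 to -0.52, did not overlap that of Acadvl, but a difference between these genes was not tested.

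Eci1, which shifts the double bond of unsaturated chains so that they can enter the cycle, had 4938, 2490 and 3231 in Burn-CLP, 4102, 4130 and 4428 in Sham-CLP, and 5859, 7571 and 9054 in Sham-Sham. Both CLP groups lay below Sham-Sham, by -1.11 ± 0.26 (adjusted p = 0.0771) in Burn-CLP and -0.81 ± 0.26 (adjusted p = 0.33) in Sham-CLP, where it was -0.45 with median scaling. The other Eci1 probe set was above the floor on 1 array only, at 147.9 in the third Burn-CLP array. Decr1, the dienoyl-CoA reductase of mitochondria, stood at -0.66 ± 0.22 (adjusted p = 0.157) in Burn-CLP, and Eci2 at -0.31 ± 0.16 (adjusted p = 0.322).

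Hadha and Hadhb encode the α and β subunits of the trifunctional protein, which carries out the later steps for long chains. Hadha had 2520, 1821 and 2104 in Burn-CLP, 2529, 2765 and 2782 in Sham-CLP, and 2541, 3754 and 3709 in Sham-Sham. Hadhb had 3112, 2398 and 3168 in Burn-CLP, 3209, 3112 and 3216 in Sham-CLP, and 3594, 5097 and 4805 in Sham-Sham. For both, all Burn-CLP arrays lay below all Sham-Sham arrays, by -0.62 ± 0.21 for Hadha (adjusted p = 0.157) and -0.63 ± 0.19 for Hadhb (adjusted p = 0.138). In RefSeq GRCr8 the genes lie head to head on chromosome 6, with start sites 301 bases apart, so their promoter windows share 200 bases. The Hadha window (chr6:31907551-31907850, plus strand) is shown for that shared stretch and holds no match to the motif above.
Hadha: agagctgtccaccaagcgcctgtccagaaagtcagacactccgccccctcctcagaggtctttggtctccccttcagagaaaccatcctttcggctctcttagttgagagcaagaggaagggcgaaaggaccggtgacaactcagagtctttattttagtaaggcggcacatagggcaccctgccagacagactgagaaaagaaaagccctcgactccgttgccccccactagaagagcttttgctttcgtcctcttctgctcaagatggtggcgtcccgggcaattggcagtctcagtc
Hadh, the hydroxyacyl-CoA dehydrogenase for shorter chains, had 2 probe sets, at -0.91 ± 0.27 (adjusted p = 0.127) and -0.43 ± 0.31 (adjusted p = 0.46) in Burn-CLP, the second with 1 array of each CLP group at the floor. Acaa2, the mitochondrial thiolase, stood at -0.47 ± 0.23 (adjusted p = 0.288).

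The electron transfer flavoprotein and its oxidoreductase take electrons from the dehydrogenases to the respiratory chain. Their log2 differences from Sham-Sham in Burn-CLP ran from -0.53 to 0.00, but a difference between these genes was not tested. Etfdh, the oxidoreductase, had 2063, 2040 and 2074 in Burn-CLP, 1707, 2027 and 2125 in Sham-CLP, and 2771, 3306 and 2860 in Sham-Sham. Neither CLP group overlapped Sham-Sham. The log2 difference was -0.53 ± 0.16 (adjusted p = 0.139) in Burn-CLP and -0.61 ± 0.16 in Sham-CLP, where its adjusted p of 0.293 was the smallest of the members and the difference was -0.30 with median scaling. Etfb, the β subunit, stood at -0.24 ± 0.15 in Burn-CLP. Etfa, the α subunit, averaged 3687 ± 394.5 in Burn-CLP, 3818 ± 136.4 in Sham-CLP and 3679 ± 274.7 in Sham-Sham (SD, n = 3 each), a log2 difference of 0.00 ± 0.16 in Burn-CLP with a 95% interval of -0.36 to 0.36.

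**Figure D3:**
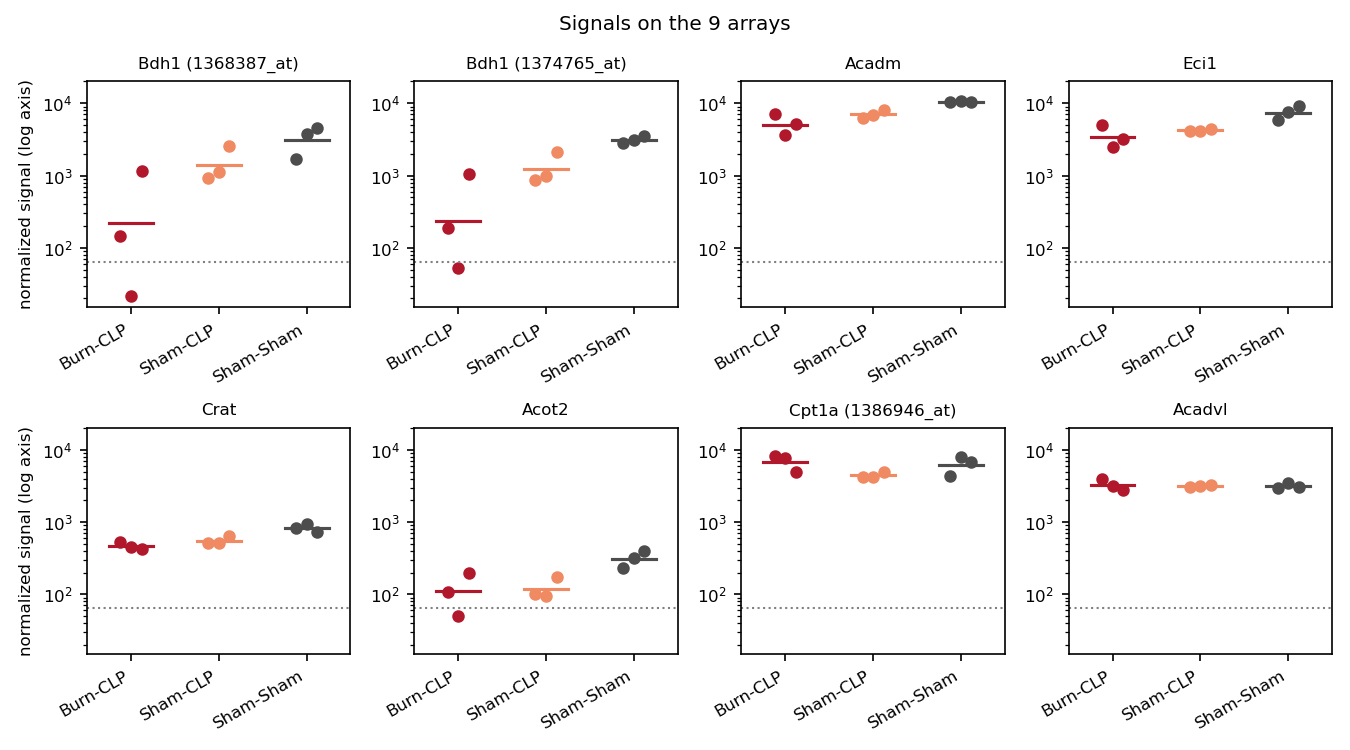
Normalized signals (y axis, log scale) of 8 member probe sets on each array, in Burn-CLP, Sham-CLP and Sham-Sham from left to right in each panel. Dots are arrays, lines are geometric means and the dotted line is the floor of 64.31; Bdh1 spreads most within Burn-CLP, and Acadvl overlaps in all groups.

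Among the peroxisomal genes Ehhadh had the lowest level in Burn-CLP relative to Sham-Sham, and Acox2 the highest. Ehhadh, the L-bifunctional enzyme and a classical PPARα target, had 2636, 1035 and 4054 in Burn-CLP, 4805, 4704 and 4707 in Sham-CLP, and 3778, 7804 and 8226 in Sham-Sham. All Burn-CLP arrays lay below all Sham-CLP arrays, and the third Burn-CLP array lay above Sham-Sham 1. The log2 difference was -1.48 ± 0.46 (adjusted p = 0.145) against Sham-Sham and -1.09 ± 0.46 (adjusted p = 0.533) against Sham-CLP, and that of Sham-CLP against Sham-Sham was -0.40 ± 0.46. Hsd17b4, the D-bifunctional enzyme, had 5435, 4474 and 4415 in Burn-CLP, 5016, 4955 and 5057 in Sham-CLP, and 6374, 7187 and 6831 in Sham-Sham. Both CLP groups lay below Sham-Sham, by -0.51 ± 0.16 (adjusted p = 0.139) and -0.44 ± 0.16 (adjusted p = 0.361). Decr2, the peroxisomal dienoyl-CoA reductase, had 2646, 1687 and 2617 in Burn-CLP, 2248, 2386 and 2536 in Sham-CLP, and 3279, 3672 and 2865 in Sham-Sham, with differences of -0.52 ± 0.21 (adjusted p = 0.218) and -0.45 ± 0.21 (adjusted p = 0.446). With median scaling the Sham-CLP differences from Sham-Sham were -0.02 for Ehhadh, -0.05 for Hsd17b4 and -0.12 for Decr2.

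Acox2, an oxidase of branched chains and bile acid intermediates, read 5097, 4450 and 4269 in Burn-CLP, 4885, 5037 and 4113 in Sham-CLP, and 1723, 4749 and 5046 in Sham-Sham. The groups overlapped apart from the low Sham-Sham 1. The log2 difference in Burn-CLP was 0.41 ± 0.36 (adjusted p = 0.546) with that array and -0.09 without it. Pex11a, a peroxisome proliferation factor, had probe sets at -0.63 ± 0.33 and -0.12 ± 0.67 in Burn-CLP, both with overlapping groups, and Sham-Sham 1 read 74.3 on the second against 668.5 and 403.1 on the other Sham-Sham arrays.

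Both genes of the ketone body step were lower in Burn-CLP than in Sham-Sham at an unadjusted p under 0.05, as were 9.85% of all probe sets, and Bdh1 differed the most of the tested members. Bdh1, 3-hydroxybutyrate dehydrogenase, which interconverts the ketone bodies, had 2 probe sets. The one with the smaller p read 185.6, 52.6 and 1050 in Burn-CLP, 867, 996.8 and 2104 in Sham-CLP, and 2819, 3077 and 3471 in Sham-Sham. The other read 147, 21.3 and 1145 in Burn-CLP, 913.2, 1120 and 2581 in Sham-CLP, and 1695, 3790 and 4568 in Sham-Sham. On both, the first 2 Burn-CLP arrays stood far below every other array and the third lay within the Sham-CLP range, yet below all Sham-Sham arrays. The log2 difference in Burn-CLP against Sham-Sham was -3.74 ± 0.81 (adjusted p = 0.0681) and -3.80 ± 0.91 (adjusted p = 0.079), or 7.47% and 7.17% of the Sham-Sham level. One Burn-CLP array was at the floor on each, so both are understated. Without the second Burn-CLP array they were -2.82 and -2.91. Without the third both passed the test, at -4.84 (adjusted p = 0.00752) and -4.999 (adjusted p = 0.0135).

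In Sham-CLP against Sham-Sham the Bdh1 differences were -1.35 ± 0.81 (adjusted p = 0.535) and -1.16 ± 0.91 (adjusted p = 0.621), and the groups overlapped on the second probe set only. In Burn-CLP against Sham-CLP they were -2.39 ± 0.81 and -2.64 ± 0.91, each with an adjusted p of 0.437. Without the second Burn-CLP array these were -1.47 and -1.76, and without the third they were -3.49, which passed (adjusted p = 0.0394), and -3.84 (adjusted p = 0.0509). Acat1, the mitochondrial acetoacetyl-CoA thiolase at the head of ketone body synthesis, had 3614, 1872 and 2779 in Burn-CLP, 2743, 2916 and 3420 in Sham-CLP, and 3798, 4828 and 4079 in Sham-Sham. Both CLP groups lay below Sham-Sham, by -0.66 ± 0.24 (adjusted p = 0.187) and -0.48 ± 0.24 (adjusted p = 0.467), the second of which was -0.13 with median scaling.

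The coactivator gene Ppargc1a did not pass the filter on low signals. Its signals were 53.7, 238.5 and 60.1 in Burn-CLP, 5.48, 19.5 and 43.3 in Sham-CLP, and 46.1, 19.3 and 6.72 in Sham-Sham, so only the second Burn-CLP array exceeded the floor. With the floor at the 10th percentile its log2 difference in Burn-CLP was 1.49 against Sham-Sham (adjusted p = 0.212) and 1.52 against Sham-CLP (adjusted p = 0.536). With no filter it was 0.63 against each (adjusted p = 0.539 and 0.818).

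By step, the median log2 difference in Burn-CLP against Sham-Sham was -0.51 for uptake and activation (6 probe sets), -0.46 for the carnitine shuttle (8), -0.53 for mitochondrial β-oxidation (15), -0.52 for peroxisomes (6) and -3.74 for ketone bodies (3, of which 2 are Bdh1). With 1 probe set per gene they were -0.33, -0.46, -0.58 and -0.52, and that of ketone bodies was -2.23. In Sham-CLP against Sham-Sham the medians were 0.00 for uptake, -0.43 for the carnitine shuttle, -0.35 for mitochondria, -0.21 for peroxisomes and -1.16 for ketone bodies. With median scaling they were 0.43, -0.18, 0.03, 0.09 and -0.87, so the sign of the mitochondrial and peroxisomal medians in Sham-CLP turned with the scaling. In Burn-CLP against Sham-CLP they were -0.47, -0.04, -0.20, -0.27 and -2.39. With median scaling they were -0.79, -0.23, -0.45, -0.43 and -2.535, and with 1 probe set per gene those of peroxisomes and ketone bodies were -0.08 and -1.41. Without Burn-CLP 2 those of uptake, mitochondria and ketone bodies were -0.24, -0.05 and -1.47. That of the carnitine shuttle stood at 0.08 if Burn-CLP 3 was left out and at -0.21 if Burn-CLP 1 was, and that of peroxisomes at -0.42 in the fit lacking Burn-CLP 1 and -0.13 in the one lacking Sham-CLP 2. Against Sham-Sham, the uptake median in Burn-CLP was -0.29 with Burn-CLP 2 left out and -0.77 with Burn-CLP 3 left out. The peroxisomal median in Sham-CLP turned to 0.02 if Sham-Sham 2 was left out, and it was -0.10 if Sham-CLP 3 was and -0.47 if Sham-Sham 1 was. Differences between steps were not tested.

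**Figure D4:**
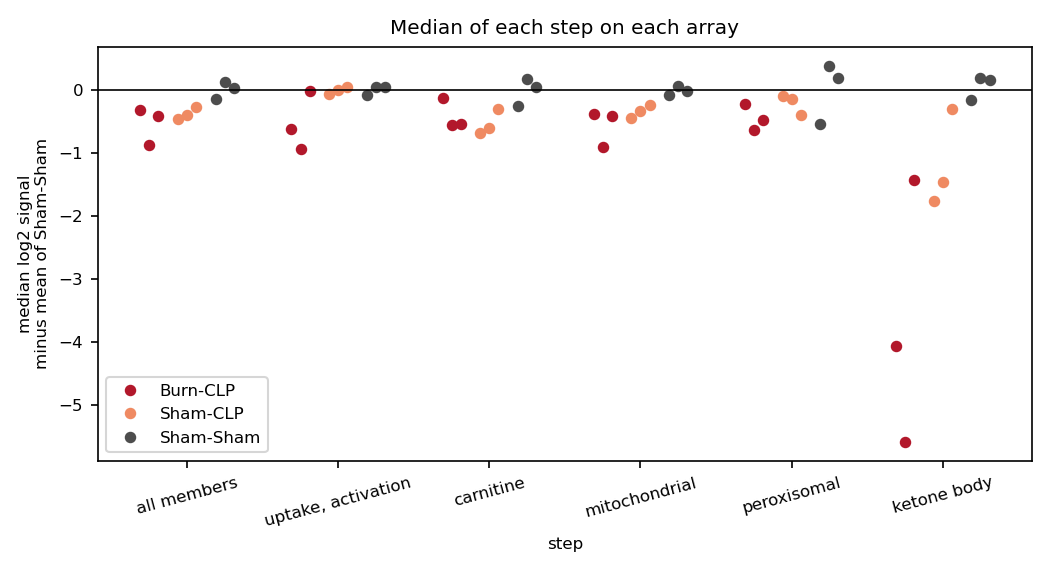
Median level of each step on each array, as the log2 signal minus the Sham-Sham mean (y axis), for Burn-CLP, Sham-CLP and Sham-Sham from left to right. Ketone body medians were -4.07, -5.58 and -1.43 in Burn-CLP, and the second Burn-CLP array stands at -0.89 for mitochondrial genes.

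A wider list of 64 genes of fatty acid transport, oxidation, ketone bodies and their control was read beside the members, of which 55 had a probe set and 56 probe sets were tested. In Burn-CLP against Sham-Sham 0 of 56 were called, and at an unadjusted p under 0.05, 17 (30.4%) were lower and 5 (8.93%) higher, beside 9.85% and 10% of all probe sets. The median log2 difference was -0.14. For Sham-CLP against Sham-Sham 0 were called, and 3 (5.36%) were lower and 3 higher at that p, beside 5.9% and 5.83% of all. The median was 0.04. In Burn-CLP against Sham-CLP 0 were called, and 9 (16.1%) were lower and 1 (1.79%) higher at that p, beside 5.19% and 3.9% of all. The median was -0.15. Of the peroxisomal probe sets of the wider list 11 of 12 had lower means in Burn-CLP than in Sham-Sham, 6 of them at an unadjusted p under 0.05, with a median of -0.42. Of the mitochondrial ones 5 of 10 had lower means, 3 of them at that p, with a median of -0.06. The median of all probe sets in that comparison was 0.01.

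With both CLP groups pooled against Sham-Sham, 1 of the 56 tested probe sets of the wider list passed, that of Fabp5, beside 0.355% of all. Fabp5, a fatty acid binding protein typical of skin and macrophages, had 905.6, 1607 and 939.5 in Burn-CLP, 1439, 1586 and 2030 in Sham-CLP, and 502.5, 407.8 and 537.7 in Sham-Sham. All 6 CLP arrays lay above all Sham-Sham arrays. Its difference from Sham-Sham in Burn-CLP was 1.21, which did not pass. Pooled, it rose by a log2 change of 1.505 ± 0.22 (adjusted p = 0.0314). It no longer passed in 10 of 18 alternatives, with an adjusted p of up to 0.108, among them those without Burn-CLP 1, without any 1 of the Sham-CLP arrays and without Sham-Sham 1 or Sham-Sham 2. The macrophage marker sums given above were higher in Burn-CLP than in Sham-Sham, and their part in this value was not tested. In Sham-CLP, where the Fabp5 difference was 1.80 ± 0.25 (adjusted p = 0.0553), those sums overlapped Sham-Sham.

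Among the regulators of the wider list, Nr1h4, the bile acid receptor FXR, had 531, 559.9 and 822.7 in Burn-CLP, 1408, 1223 and 1270 in Sham-CLP, and 1201, 1106 and 1167 in Sham-Sham. Burn-CLP lay below both other groups, by -0.89 ± 0.20 (adjusted p = 0.0687) against Sham-Sham and -1.05 ± 0.20 (adjusted p = 0.179) against Sham-CLP. Angptl4, a PPAR target that inhibits lipoprotein lipase, had 772, 400.1 and 491.1 in Burn-CLP, 782.2, 708.5 and 1356 in Sham-CLP, and 1402, 1440 and 1193 in Sham-Sham, with a Burn-CLP difference of -1.33 ± 0.30 (adjusted p = 0.0715). Dbi, the acyl-CoA binding protein, had 4576, 3191 and 5562 in Burn-CLP, 8687, 6934 and 10029 in Sham-CLP, and 7332, 6420 and 7635 in Sham-Sham, and stood at -0.96 ± 0.23 (adjusted p = 0.333) against Sham-CLP. Acsl3, another acyl-CoA synthetase, had 286.4, 189.5 and 347.7 in Burn-CLP, 548.2, 526.7 and 493.8 in Sham-CLP, and 471.6, 316.4 and 423.8 in Sham-Sham, and stood at -0.97 ± 0.25 (adjusted p = 0.345) against Sham-CLP.

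Amacr and Ech1 had lower means in both CLP groups than in Sham-Sham, and Hacl1 mainly in Sham-CLP. Amacr, the racemase of branched acyl-CoA, had 5005, 5145 and 7126 in Burn-CLP, 6385, 6705 and 8310 in Sham-CLP, and 9740, 8504 and 10922 in Sham-Sham, so both CLP groups lay below Sham-Sham, by -0.77 ± 0.20 (adjusted p = 0.101) and -0.45 ± 0.20 (adjusted p = 0.431). The second of these was -0.06 with median scaling. Ech1, a dienoyl-CoA isomerase, had 6512, 3886 and 3678 in Burn-CLP, 4624, 5163 and 3558 in Sham-CLP, and 6147, 8444 and 8908 in Sham-Sham, with differences of -0.77 ± 0.27 (adjusted p = 0.168) and -0.81 ± 0.27 (adjusted p = 0.33), the second of which was -0.44 with median scaling. Hacl1, the lyase of peroxisomal α-oxidation, had 5588, 4664 and 3153 in Burn-CLP, 2154, 2034 and 3486 in Sham-CLP, and 5419, 4459 and 4987 in Sham-Sham. It stood lower in Sham-CLP, at -0.99 ± 0.27 (adjusted p = 0.30) against Sham-Sham and -0.64 with median scaling, while Burn-CLP overlapped Sham-Sham at -0.18 ± 0.27.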

How the data were processed

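The deposited table holds a linear intensity for each of 15923 probe sets on each array, 57 of them controls. How the authors derived these intensities from scans is not given in the labels or headers used here. The mean trimmed by 2% at each end lay at 500.14 to 500.17 on all arrays, with medians of 205 to 268.1. Here the arrays were quantile normalized, signals under the 20th percentile (64.31) were set to it and log2 was taken. Probe sets above it on at least 3 of 9 arrays were tested, without controls. limma 3.58.1 in R 4.3.3 fitted all 9 arrays (lmFit, eBayes) with Benjamini-Hochberg adjustment. Symbols are those of the platform annotation, 12748 updated through Entrez identifiers to GRCr8. Cross-hybridization between relatives was not excluded, and probe positions were not used here.

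Values on every array are given, in each step, for the 3 probe sets with the smallest p of the F test, and of the wider list for those called and the 3 with the smallest p per comparison. Other members shown in full, and the marker genes S100a9 and Dcn, were chosen after their values were seen. Members and lists were chosen with earlier results of these data known. The small number of arrays limits the precision. The labels name no separate animals, so the p-values measure the spread between arrays, and that spread may be technical. An exact two-sided permutation test of 3 arrays against 3 cannot go below 0.1, so none was used. The limma fit was tried on simulated data, in which 200 of 13535 probe sets were changed in Burn-CLP. Against Sham-Sham it called 27% of log2 changes of 1 and 86% of those of 2. Against Sham-CLP it called 30% and 84%. Most changes of 1 were thus missed. Alternatives covered scaling, floor, filter, the fit, the replicate block and leaving out arrays.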

Additional observations from a re-analysis of the deposited data

How the results depend on the processing

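No member passed under any scaling, floor, filter, the replicate block or the fit of only the groups compared. Counts of all probe sets called in Burn-CLP against Sham-Sham were 53 with the floor at the 10th percentile, 13 with only those groups fitted, 317 with an eBayes trend and robust fit, 5 without both Burn-CLP 2 and Sham-Sham 1 (a choice made after seeing the data) and 19 to 645 with 1 array left out. In Sham-CLP against Sham-Sham they were 4 with the deposited scaling and 4 to 347 with 1 array left out. In Burn-CLP against Sham-CLP they were 1 with the deposited scaling, 4 with the lower floor and with no filter, 10 with the trend and robust fit, 0 with a pseudocount of 50, with signals above the floor on all 9 arrays, with only those groups fitted and without both arrays, and 0 to 36 with 1 array left out. Pooled, they were 30 with the pseudocount, 97 with the trend and robust fit, 18 without both arrays and 8 to 721 with 1 array left out. The trend and robust fit called 5 members lower in Burn-CLP against Sham-Sham (Acadl, Acadm, Crat, Eci1 and Hsd17b4), beside 2.34% of all probe sets. With 1 array left out, members called ran from 0 to 4 there, 0 to 1 in Burn-CLP against Sham-CLP and 0 to 2 pooled. The highest came without the third Burn-CLP array, beside 1.65%, 0.268% and 0.358% of all probe sets called. In Burn-CLP against Sham-Sham these were both Bdh1 probe sets, Acot2 and 1 Acsl1 probe set, among 221. Without Sham-Sham 3 only Crat was called there, among 645, or 4.8% of all probe sets. Member medians ran from -0.72 to -0.42 in Burn-CLP against Sham-Sham, from -0.47 to -0.29 in Sham-CLP against Sham-Sham and from -0.34 to -0.066 in Burn-CLP against Sham-CLP with 1 array left out. With median scaling they were -0.017 in Sham-CLP against Sham-Sham, -0.44 in Burn-CLP against Sham-CLP and -0.26 pooled.

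Several values turned direction. No member passed in the main fit, so among members such turns could only fall on genes that had not passed. Turns in Burn-CLP against Sham-CLP are not listed. In Burn-CLP against Sham-Sham, median scaling gave 0.015 for Acsl5 and 0.00952 for Slc27a2, the deposited scaling -0.035 for Cpt1b, and leaving out both arrays -0.067 for Acox2, 0.024 for Acsl5 and -0.20 for both Cpt1a probe sets. With 1 array left out, Acadvl ran from -0.081 to 0.16, Acox2 from -0.091 to 0.68, Acsl5 from -0.13 to 0.014, Cpt1a from -0.16 to 0.57 and from -0.12 to 0.36, Cpt1b from -0.16 to 0.20, Etfa from -0.074 to 0.081, Hacl1 from -0.36 to 0.049, a Pex11a probe set from -1.08 to 0.53 and Slc27a2 from -0.17 to 0.081. In Sham-CLP against Sham-Sham, median scaling gave 0.0048 for Acadl and 0.091 for Fabp1. It also gave 0.22 for Acaa2, 0.07 for Acads, 0.06 for Eci2, 0.33 for Etfb and 0.04 for Hadha. Slc25a20 stood at 0.07 with it, Slc27a2 at 0.43, a Hadh probe set at 0.03 and a Pex11a probe set at 0.19. The deposited scaling gave 0.0076 for Acaa2, 0.11 for Etfb and 0.22 for Slc27a2. Median scaling multiplies the deposited signals of an array by a single factor, so the values of a comparison moved together. The median of all probe sets in Sham-CLP against Sham-Sham was 0.11 with it. Acadl, Fabp1, Acads, Eci2, Hadha, Slc25a20 and that Hadh probe set stayed below this median. Acaa2, Etfb, Slc27a2 and that Pex11a probe set lay above it. Acadvl stood at -0.030 without both arrays and from -0.030 to 0.075 with 1 array left out. The causes were not tested.

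With the array number as a replicate block, 59 probe sets were called in Burn-CLP against Sham-Sham, 4 in Sham-CLP against Sham-Sham, 0 in Burn-CLP against Sham-CLP and 17 pooled. Deviations of same-numbered arrays from their group means correlated at -0.0261 to 0.0806. The labels do not say whether the numbers pair the arrays, and such low correlations cannot exclude it. Signals near the floor limit what can be read for Acot1, Ppargc1a and the lowest Bdh1 arrays.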
